A study of Mus musculus with 48 samples.

Results

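The genes described here encode subunits of the 5 oxidative phosphorylation complexes of the inner mitochondrial membrane. They were chosen by symbol alone (Ndufa, Ndufb, Ndufc, Ndufs and Ndufv numbers, Sdha to Sdhd, and symbols that begin with Uqcr, Cox4 to Cox8 or Atp5), with names of pseudogenes left out. Of 19938 genes with a probe set that carries 1 gene symbol, 80 matched. By symbol, 34 were counted under complex I, 4 under complex II, 8 under complex III, 17 under complex IV and 17 under complex V. The complex was taken from the name only, so Ndufa4, for example, is counted under complex I. A filter on low signal, the 40th percentile of all probe sets (log2 5.46), kept 78 of the 80 among 13542 genes tested. The 2 members below the filter were the complex IV isoforms Cox7b2 and Cox8b. Some further subunit genes, among them Ndufb1, Cox7c and Ndufb4, were not analysed here.

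Livers (median lobe) of F1 mice of both sexes were collected at 3 weeks of age and profiled on 48 Affymetrix gene arrays, 8 for each of 6 groups. The groups were wild-type offspring of low-protein sires (WT_LPD) and of control-diet sires (WT_CD), ATF7+/- offspring of low-protein sires (ATF7+/-_LPD) and of control-diet sires (ATF7+/-_CD), and ATF7+/+ offspring of low-protein sires (ATF7+/+_LPD) and of control-diet sires (ATF7+/+_CD). The diets were given to the F0 sires from 3 to 12 weeks of age, not to the offspring. ATF7 belongs to the ATF2 group of leucine-zipper transcription factors and responds to stress. How ATF7+/+ animals differed from those labelled wild-type is not given in the labels, nor are the sex, dam or sire of an animal.

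Complex I (NADH dehydrogenase) and complex II (succinate dehydrogenase) feed electrons into the respiratory chain, complex III (cytochrome bc1) passes them to cytochrome c, and complex IV (cytochrome c oxidase) hands them to oxygen. Complexes I, III and IV pump protons, and complex V (ATP synthase) uses the gradient to make ATP. Most subunits are encoded in the nucleus, some in mitochondrial DNA, and the 2 genomes must supply them together. In liver the pathway powers gluconeogenesis and urea synthesis and burns the electrons of fatty acid oxidation.

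Array medians lay between log2 5.89 and 6.12. Replicates 4 and 5 of WT_CD differed by no more than array noise. The ratio of the spread of their difference on variable genes to that on stable genes was 1. Replicates 7 and 8 of ATF7+/+_CD differed somewhat more, with a ratio of 1.27. Each pair lay under the cutoff for averaging and was counted as 1 sample. This left 46 samples, with n = 7 in those groups and n = 8 elsewhere. On the probe sets without an annotated gene, the arrays fell into a set A of 18 and a set B of 30. Every group had 3 arrays of set A and 5 of set B, and the labels do not mention this division. Sample medians lay between log2 6 and 6.12 in set A and between 5.89 and 6.01 in set B. Every diet comparison is therefore given over all samples and within each set. The 8 hepatocyte markers on the array were all above the filter, and their summed level lay between log2 15.77 and 16.11 in every group. Atf7 itself was lower in ATF7+/- than in ATF7+/+ liver by limma, at -0.37 ± 0.06 log2 (SE, adjusted p = 0.0006203) on one probe set and -0.94 ± 0.09 (adjusted p = 3.049e-09) on another. Against wild-type, ATF7+/- liver stood at -0.20 on the first (adjusted p = 0.238) and at -0.73 on the second (adjusted p = 5.182e-06). All p-values measure the spread between these samples, which the series text calls independent experiments; nothing names separate litters.

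In wild-type offspring, 2 of the 78 tested members were higher in liver of low-protein sires' young and none was lower (limma, Benjamini-Hochberg adjusted p under 0.05 over all genes tested). Both belong to complex I: Ndufs5, a small accessory subunit on the intermembrane space side, and Ndufc2, an accessory subunit of the membrane arm. The called share was 2.56% of the members, against 3.6% of all genes tested (2.78% higher and 0.812% lower). In this fit, then, the members were not called more often than genes at large, but this depended on the fit. With the array set as a block 10 of the 78 passed, where 9.26% of genes did. In set A alone 12 passed, where 15.6% of genes did, and in set B alone 11, where 4.72% did. The values leaned one way. The log2 difference was above 0 for 61 of 78 members, with a median of 0.10, while over all genes tested 51% were above 0 and the median was 0.004. More members were above 0 in array set B than in set A, as given below. Many members varied together from sample to sample, so their signs are not separate observations. In bulk tissue, more cells of a type and more RNA per cell cannot be told apart.

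Ndufs5 had log2 levels of 7.67, 7.90 and 8.12 in WT_LPD (lowest, median and highest), against 7.20, 7.49 and 7.79 in WT_CD. The groups overlapped by 1 sample: 7 of the 8 WT_LPD samples lay above every WT_CD sample. The difference was 0.46 ± 0.08 log2 (SE, limma adjusted p = 0.0003012), a 1.37-fold higher level. Set A alone gave 0.45 ± 0.11 (adjusted p = 0.0084) and set B alone 0.44 ± 0.10 (adjusted p = 0.0113), so this gene passed in each array set by itself. Ndufs5 has 1 named pseudogene in the annotation, and its probe set could also read transcripts of a near-identical copy.

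Ndufc2 had log2 levels of 11.96, 12.15 and 12.33 in WT_LPD, against 11.51, 11.96 and 12.04 in WT_CD, and 6 of the 8 WT_LPD samples lay above every WT_CD sample. The difference was 0.25 ± 0.07 log2 (SE, limma adjusted p = 0.0468), close to the threshold. Set A alone gave 0.27 (adjusted p = 0.0858) and set B alone 0.22 (adjusted p = 0.0258). The call was lost whenever 1 of 10 samples was left out: without WT_CD replicate 3 (adjusted p = 0.0704), 6 (0.0533), 7 (0.0783) or 8 (0.193), and without WT_LPD replicate 3 (0.0737), 4 (0.0594), 5 (0.105), 6 (0.0682), 7 (0.0721) or 8 (0.0765). WT_CD replicate 8, at 11.51, was the lowest sample of its group, and the difference without it was 0.19; in the 15 fits that left out 1 sample it ran up to 0.275.

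The next members by p did not pass over all samples, but did so under some other settings. Cox7a1, the heart and muscle isoform of a small complex IV subunit, had levels of 7.05, 7.63 and 8.18 in WT_LPD, against 6.63, 6.98 and 7.54 in WT_CD. Its difference of 0.57 ± 0.17 log2 was the largest of the 78 members (SE, limma adjusted p = 0.051), with 0.62 on the arrays of set A and 0.51 on those of set B. Cox7a1 passed without WT_CD replicate 2 (adjusted p = 0.0392) or 4 and 5 (0.0279), and without WT_LPD replicate 2 (0.0238) or 6 (0.0461). It passed too with the array set as a block (adjusted p = 0.017) and with a level filter at the 60th percentile (0.0442). Atp5g3 encodes a copy of the c subunit that forms the rotor ring of ATP synthase. Its levels were 11.74, 11.83 and 12.02 in WT_LPD and 11.49, 11.65 and 11.88 in WT_CD, with a difference of 0.19 ± 0.06 (adjusted p = 0.0618), and without WT_CD replicate 6 it passed (0.0244). It also passed with the array set as a block (adjusted p = 0.0171), in set B alone (0.0275), with median centring (0.0295) and with all 48 arrays as samples (0.0411). In the other 4 groups, Cox7a1 averaged between 7.17 and 7.39 and Atp5g3 between 11.77 and 11.81.

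**Figure D1:**
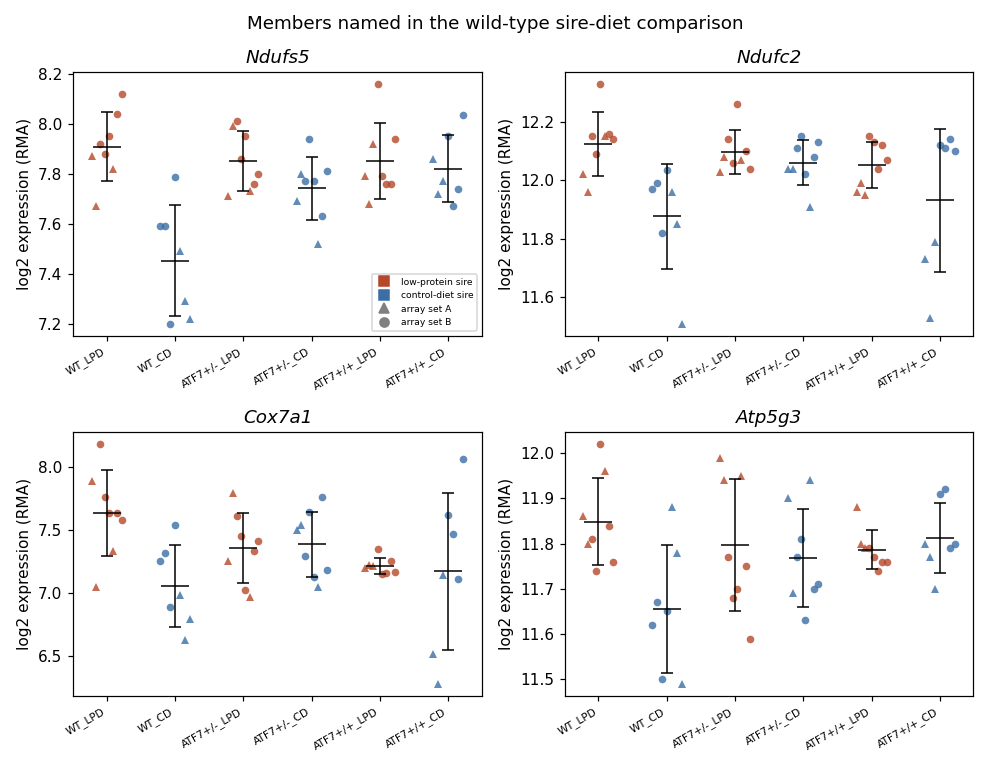
Log2 expression (RMA) of Ndufs5, Ndufc2, Cox7a1 and Atp5g3 in each sample of the 6 groups; triangles are array set A, circles array set B, and bars are the group mean ± SD. The WT_CD samples include the lowest value of Ndufs5, 7.20, while the WT_LPD samples lie from 7.67 to 8.12.

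The upstream sequences of these 4 members are shown because the promoters of respiratory genes often carry sites of the factors NRF1, GABPA, YY1 and ESRRA. The 250 bases before the start are given 5′ to 3′ on the gene's strand (RefSeq, GRCm38.p6), in lower case, with a matched motif in capitals. They lie at chr4:123718187-123718436 (minus strand) for Ndufs5, chr7:97399753-97400002 (plus) for Ndufc2, chr7:30183921-30184170 (plus) for Cox7a1 and chr2:73911327-73911576 (minus) for Atp5g3.
Ndufs5: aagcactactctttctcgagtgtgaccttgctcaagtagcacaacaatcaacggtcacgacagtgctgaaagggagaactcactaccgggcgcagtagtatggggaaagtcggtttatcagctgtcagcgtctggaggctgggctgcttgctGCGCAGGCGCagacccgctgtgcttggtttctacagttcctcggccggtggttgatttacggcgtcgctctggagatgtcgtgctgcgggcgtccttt
Ndufc2: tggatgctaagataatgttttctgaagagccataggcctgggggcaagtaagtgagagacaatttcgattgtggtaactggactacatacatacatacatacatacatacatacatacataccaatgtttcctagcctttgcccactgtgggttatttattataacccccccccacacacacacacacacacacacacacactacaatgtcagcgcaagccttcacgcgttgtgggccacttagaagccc
Cox7a1: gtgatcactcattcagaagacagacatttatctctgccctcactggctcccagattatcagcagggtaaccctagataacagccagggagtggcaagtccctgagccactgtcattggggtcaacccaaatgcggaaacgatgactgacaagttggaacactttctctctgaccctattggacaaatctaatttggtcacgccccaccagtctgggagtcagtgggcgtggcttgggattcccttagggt
Atp5g3: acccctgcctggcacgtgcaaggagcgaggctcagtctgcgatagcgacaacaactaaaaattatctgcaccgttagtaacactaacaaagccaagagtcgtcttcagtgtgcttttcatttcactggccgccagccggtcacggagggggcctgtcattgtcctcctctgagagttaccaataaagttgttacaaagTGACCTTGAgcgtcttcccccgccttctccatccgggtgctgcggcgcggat
The capitals in Ndufs5 mark an NRF1 match that begins at -98 from the start, and those in Atp5g3 mark an ESRRA match, read on the opposite strand, that begins at -52. Over windows of 300 bases (250 before and 50 after the start), promoters were found for 66 of the 80 members. The letters searched on both strands were GCGCA, any base and GCGC for NRF1, CCGGAAG for GABPA, AANATGGC for YY1 and TCAAGGTCA for ESRRA, and no matches of different motifs overlapped. Members held an NRF1 match in 24.2% of genes, against 10.3% of the 10738 tested genes with a promoter in the table. For YY1 the shares were 25.8% and 9.07%. Of the 17 members with a YY1 match 12 belong to complex I, as do 34 of all 80 members. GABPA letters were in 25.8% of members and 17.8% of tested genes. ESRRA letters were in 3.03% of members, only 2 genes, and in 0.354% of tested genes (38). At least 1 motif was in 65.2% of members and 31.9% of tested genes; the GC content was 57.6% in members and 60.2% in tested genes. These are matches of letters, not binding sites. Ndufc2 and Cox7a1 held none of the 4 motifs in the printed window, and Atp5g3 had an NRF1 match at 13 bases after the start, outside it.

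By complex, the wild-type diet differences of complex I ran from -0.14 (Ndufa5) to 0.46 (Ndufs5), with a median of 0.11, and 27 of 34 were above 0. Ndufs8, a core iron-sulfur subunit, stood at 0.44 ± 0.20 and Ndufs4, an accessory subunit, at 0.36 ± 0.17, with wide errors (SE, limma adjusted p = 0.272 and 0.268). Ndufv1, which binds NADH, stood at 0.02 ± 0.11. In complex II all 4 values were above 0, from 0.05 for the iron-sulfur subunit Sdhb to 0.17 ± 0.06 for the flavoprotein Sdha (adjusted p = 0.114), with a median of 0.09.

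In complex III the median was 0.12 and 6 of 8 values were above 0. Uqcrb, a small subunit near the quinone site, had levels of 11.41, 11.68 and 12.01 in WT_LPD and 10.84, 11.41 and 11.74 in WT_CD, a difference of 0.35 ± 0.12 (SE, limma adjusted p = 0.0984). Its 3 probe sets gave 0.35 ± 0.12, 0.32 ± 0.145 and 0.37 ± 0.10, and only the first was used for the call. Set A alone gave 0.77 (limma adjusted p = 0.00219) and set B alone 0.06 (0.758). Uqcrb passed without WT_CD replicates 4 and 5, one of the 4 members called there. In complex IV the median was 0.08, 10 of 15 tested values were above 0, and the range was from -0.21 (Cox6a2) to 0.57 (Cox7a1). In complex V the median was 0.12 and 14 of 17 values were above 0. There Atp5a1, the catalytic-head alpha subunit, stood at 0.14 ± 0.05 (adjusted p = 0.0937), and it passed without WT_CD replicate 7. At an unadjusted p under 0.05, 16 members (20.5%) were counted, 15 higher and 1 lower, against 15.9% of all genes tested.

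**Figure D2:**
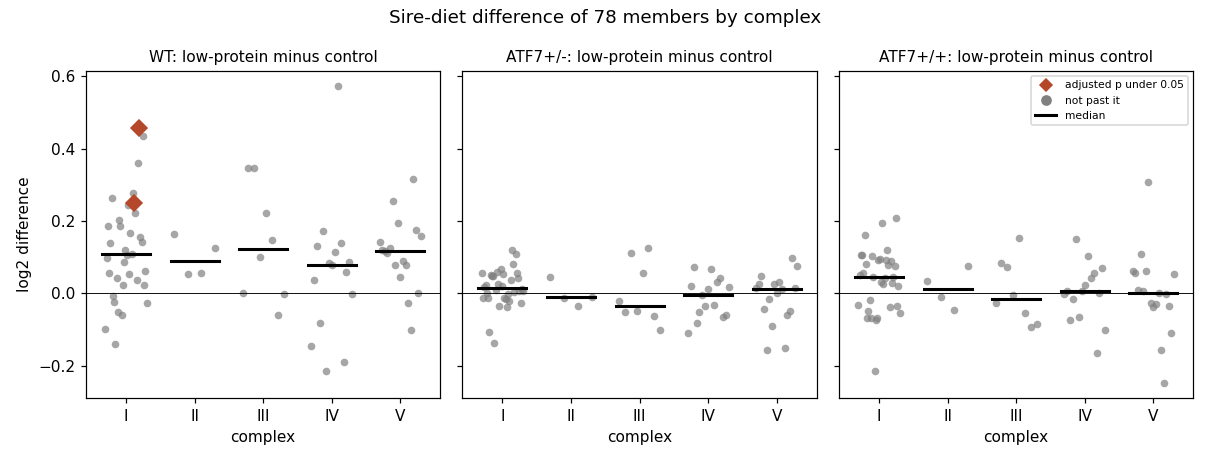
Log2 difference between low-protein and control sires of the 78 tested members (points), by complex and genotype label, with the median of each complex as a bar. Diamonds mark the 2 members with an adjusted p under 0.05, both in complex I of wild-type offspring; the complex medians in wild-type offspring lie from 0.08 to 0.12.

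Taken per sample, the mean deviation of the 78 members from their overall means was between -0.11 and 0.14 log2 in WT_LPD, with a median of 0.06, and between -0.16 and 0.04 in WT_CD, with a median of -0.08. The 2 groups overlapped. Group means were 0.04 ± 0.09 in WT_LPD and -0.07 ± 0.07 in WT_CD (SD, n = 8 and 7), the highest and the lowest of the 6 groups. The other means were 0.02 in ATF7+/-_LPD, 0.02 in ATF7+/-_CD, 0.001 in ATF7+/+_LPD and -0.02 ± 0.13 in ATF7+/+_CD. Replicate 2 of ATF7+/+_CD, at -0.26, was the lowest of the 46 samples. In both arms the set A mean lay below the set B mean: WT_LPD averaged -0.06 (set A) and 0.09 (set B), while WT_CD averaged -0.10 (set A) against -0.05 (set B).

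**Figure D3:**
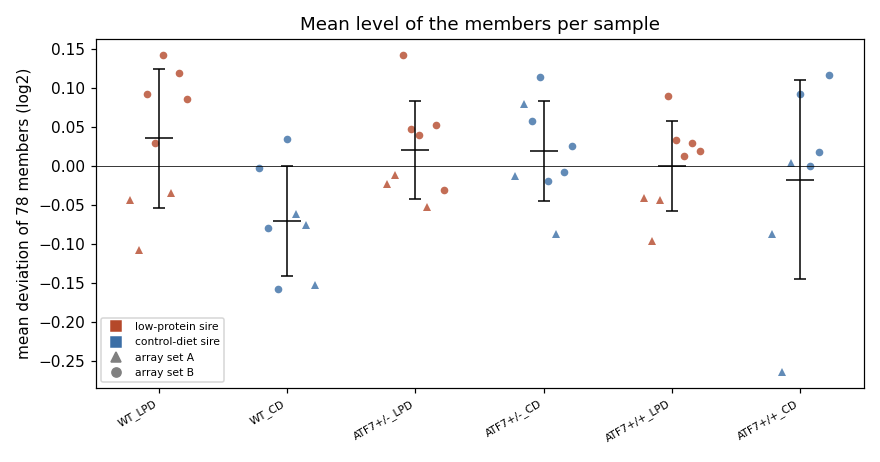
Mean log2 deviation of the 78 tested members from their means over all samples, one point per sample (triangles array set A, circles array set B), with the group mean ± SD. WT_LPD samples lie from -0.11 to 0.14 and WT_CD samples from -0.16 to 0.04.

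The wild-type values differed between the array sets. In set B alone the values were above 0 for 70 of 78 members, the median was 0.14, and 11 members (14.1%) passed, all higher, against 4.72% of all genes tested. In set A alone the values were above 0 for 43 of 78, the median was 0.04, and 5 members passed as higher and 7 as lower (15.4% of members, against 15.6% of genes). With the array set as a block, 10 members passed, all higher (12.8%, against 9.26% of genes), and the median was 0.09. The sign was the same in both sets for 43 of 78 members (55.1%), beside 52.8% of all genes tested. Whether the difference in set A differed from that in set B was not tested.

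Ndufs5 was the 1 member called in both sets in the same direction, and Ndufb7, an accessory complex I subunit, was the 1 called in opposite directions. In set A, Ndufb7 stood at -0.48 ± 0.10 (SE, limma adjusted p = 0.00361); in set B it stood at 0.33 ± 0.09 (adjusted p = 0.033). The other members called in set A, named after their values were seen, were Uqcrb (0.77), Ndufs8 (0.71), Atp5md (0.71) and Ndufs4 (0.54) as higher, and Cox4i1 (-0.49), Cox5b (-0.46), Ndufa5 (-0.44), Ndufb10 (-0.43), Cox7a2l (-0.34) and Uqcrh (-0.33) as lower. In set B they were Cox8a (0.25), Atp5a1 (0.23), Ndufa9 (0.20), Ndufc2 (0.22), Atp5g3 (0.22), Ndufa8 (0.30), Atp5mpl (0.29), Cox6b1 (0.20) and Ndufa10 (0.23), all higher. Complex I subunits stood on both sides of 0 in set A: Ndufs8 and Ndufs4 were higher and Ndufa5 and Ndufb10 lower.

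**Figure D4:**
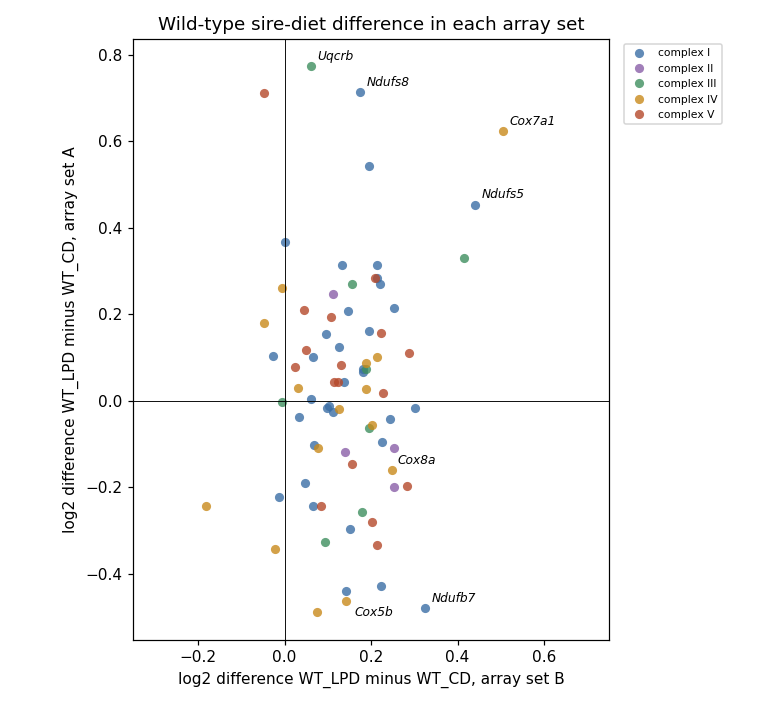
Wild-type log2 difference (WT_LPD minus WT_CD) of each of the 78 tested members in array set B (horizontal) against array set A (vertical), coloured by complex. Most points lie right of 0 in set B, 70 of 78, and are spread about 0 in set A, 43 of 78 above it.

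In ATF7+/- offspring no member was called for the sire's diet, and no gene was called among all those tested (0% by limma). At an unadjusted p under 0.05, 2 members and 178 genes were counted. The median difference of the members was 0.008, beside 0.004 for all genes, and 44 of 78 values were above 0. The smallest p belonged to Uqcrq, a small complex III subunit, with levels of 11.02, 11.24 and 11.35 in ATF7+/-_LPD and 11.16, 11.32 and 11.52 in ATF7+/-_CD. Its difference was -0.10 ± 0.05 (SE), and the groups overlapped. Ndufa7 (-0.14), Ndufs5 (0.11 ± 0.08) and Cox4i1 (-0.11) came next, each with a limma adjusted p of 1. Without ATF7+/-_CD replicate 2, Ndufa7 stood at -0.06. The 95% interval of the difference lay within 1.25-fold either way for 54 of 78 members (69.2%), beside 71.1% of all genes tested.

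ATF7+/+ offspring likewise had 0 of 78 members called, with 0.00738% of all genes called by limma; 0 members had an unadjusted p under 0.05, against 4.59% of genes. The median was 0.02, beside 0.006 for all genes. Ndufb10, an accessory complex I subunit, had levels of 7.59, 7.72 and 7.98 in ATF7+/+_LPD and 7.74, 7.90 and 8.43 in ATF7+/+_CD, a difference of -0.22 ± 0.11 (SE, limma adjusted p = 0.9995). Uqcrc2, a core protein of complex III, stood at 0.15 ± 0.08, Ndufa12 at 0.11 and Uqcrq at -0.09; without ATF7+/+_CD replicate 2, Uqcrc2 stood at 0.08. In this label 51 of 78 intervals (65.4%) lay within 1.25-fold. In wild-type offspring 40 did (51.3%), beside 53.8% of all genes tested. Within array sets no member passed in either label. For ATF7+/- the medians were -0.02 (set A, 0.00738% of genes called) and 0.02 (set B, 0%). For ATF7+/+ they were 0.03 (set A, 0.436%) and -0.03 (set B, 0%), and with the set as a block 0.126% of genes were called.

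Differences between labels in the diet difference were tested directly. No member passed for ATF7+/- minus wild-type, where 0.635% of all genes did, nor for ATF7+/+ minus wild-type (0.0222% of genes) or ATF7+/- minus ATF7+/+ (0% of genes; 0 members at an unadjusted p under 0.05). The first 2 of these tests share the wild-type samples. For ATF7+/- minus wild-type the median was -0.10, with 65 of 78 values below 0; for ATF7+/+ minus wild-type it was -0.08, with 68 below 0. The all-gene medians were -0.002 and -0.005. Ndufs5 had the smallest p in both, at -0.35 ± 0.11 (SE, limma adjusted p = 0.155) and at -0.43 ± 0.11 (adjusted p = 0.155). With the array set as a block the second was -0.43 (adjusted p = 0.0403), past the threshold, while 0.377% of genes passed. No other member passed with the block, and none within a single array set: for ATF7+/- minus wild-type 2.07% of genes did in set A, 1.34% in set B and 2.21% with the block, and for ATF7+/+ minus wild-type 3.08% in set A and 0.0886% in set B. In that second comparison the median of the members was 0.003 on set A arrays, beside -0.16 on set B arrays. Cox7a1 stood at -0.61 ± 0.24 against ATF7+/- and at -0.53 ± 0.25 against ATF7+/+ (adjusted p = 0.329 and 0.65), Ndufc2 at -0.21 for ATF7+/-, Atp5g3 at -0.17 and -0.22, and Uqcrb at -0.27 for ATF7+/+. For ATF7+/- minus ATF7+/+, the values with the smallest p were Ndufb10 at 0.24, Cox8a at -0.13, Cox6a1 at -0.20 and Atp5o at 0.12. The median there was -0.02 over all samples, -0.06 on set A arrays and 0.04 on set B arrays.

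Genotype labels, averaged over the sire's diet, also gave no called member: 0 of 78 for ATF7+/- against wild-type (0.00738% of genes by limma), 0 for ATF7+/- against ATF7+/+ (0.155%) and 0 for ATF7+/+ against wild-type (0.0222%). At an unadjusted p under 0.05 the counts of members were 4 (5.13%, against 6.82% of all genes tested), 11 (14.1%, against 11.4%) and 9 (11.5%, against 12.4%). The medians were 0.04, 0.03 and -0.002. Against wild-type, ATF7+/- liver had Uqcrb at 0.23 ± 0.08, Atp5md at 0.33 ± 0.15, Ndufs5 at 0.12 ± 0.06 and Atp5pb at 0.12 ± 0.06 (SE, adjusted p from 0.515 to 0.729). Atp5md is a small membrane-sector subunit of ATP synthase, and Atp5pb encodes its peripheral stalk subunit b.

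Between ATF7+/- and ATF7+/+ the smallest p was that of Cox6a1, the liver-type partner of a tissue-specific complex IV pair. Its levels were 10.77, 10.86 and 11.09 in ATF7+/-_LPD and 10.82, 10.94 and 11.14 in ATF7+/-_CD, against 10.35, 10.90 and 10.98 in ATF7+/+_LPD and 10.01, 10.72 and 10.88 in ATF7+/+_CD. The difference was 0.27 ± 0.07 (SE, limma adjusted p = 0.102), with overlap between the labels, and the ATF7+/+ samples reached lower. Ndufa9 (0.16 ± 0.05), Ndufa2 (0.26 ± 0.09) and Ndufa10 (-0.11 ± 0.05) followed. Between ATF7+/+ and wild-type, Atp5md stood at 0.57 ± 0.15, Atp5j2, a subunit of the membrane sector, at -0.20 ± 0.06 and Ndufb6 at 0.41 ± 0.12 (all with adjusted p = 0.107), and Ndufs5 at 0.16 ± 0.06.

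The array sets differed in the genotype comparisons. In set A alone, 30 members were called between ATF7+/- and ATF7+/+, 19 higher and 11 lower (38.5%, against 22.8% of genes), and 29 between ATF7+/+ and wild-type, 12 higher and 17 lower (37.2%, against 28.6%). In set B alone no member and no gene was called in either (0% each). Atp5md was 1.36 higher in ATF7+/+ than in wild-type in set A (limma adjusted p = 1.281e-05) while set B gave 0.03 (0.987). Cox6a1 stood at 0.64 between ATF7+/- and ATF7+/+ in set A (adjusted p = 0.000247), while set B gave 0.02 (0.946). With the set as a block, 7 members were called in each comparison (8.97%, against 3.24% and 3.4% of genes). Between ATF7+/- and ATF7+/+ they were Cox6a1 (0.26), Ndufb8 (0.33), Ndufa2 (0.25), Ndufs4 (0.22), Sdhd (0.18) and Ndufa9 (0.16) as higher and Atp5mpl (-0.22) as lower. Between ATF7+/+ and wild-type they were Atp5md (0.57), Ndufb6 (0.41), Ndufa3 (0.28), Atp5mpl (0.27) and Cox6a2 (0.19) as higher and Ndufb8 (-0.30) and Atp5j2 (-0.20) as lower. For ATF7+/- against wild-type, Uqcrb (0.46) and Atp5md (0.66) were called in set A (2.56%, against 0.953% of genes) and none in set B, where 0.0443% of genes were, or with the block (0.598%). Why the sets differ was not tested.

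The median level of the tested members was log2 10.41, beside 7.33 for all genes tested. Mean levels ran from 7.38 (Ndufb3) to 12.03 (Ndufc2) in complex I, from 10.53 (Sdhb) to 11.21 (Sdha) in complex II, from 8.91 (Uqcrfs1, the Rieske protein) to 11.72 (Uqcrc2) in complex III, from 4.10 (Cox7b2) to 12.71 (Cox6c) in complex IV and from 8.45 (Atp5k) to 12.40 (Atp5d) in complex V. Levels of different probe sets depend on their probes and set no order among genes. The spread of samples about their group means (SD) was widest for Ndufb7 (0.61), Ndufb2 (0.53) and Atp5mpl (0.51), and narrowest for Atp5c1 (0.10), the central stalk gamma subunit, Uqcrq (0.08) and Atp5a1 (0.08). The median SD was 0.19 for the members and 0.20 for all genes tested.

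Tissue isoforms of complex IV behaved as follows. The broadly expressed Cox4i1, Cox6a1, Cox6b1, Cox7a2, Cox7b and Cox8a were all at 9.50 or above in every sample. Of their tissue-restricted partners, Cox4i2, found mainly in lung, averaged between 5.89 and 5.93 in the 6 groups, and Cox6b2 and Cox8c, of testis, between 6.15 and 6.27 and between 5.70 and 5.86. Cox7b2 and Cox8b stayed below the filter, with group means between 4.06 and 4.15 and between 5.21 and 5.37. Cox6a2, of heart and muscle, had levels of 5.92, 6.17 and 6.43 in WT_LPD and 6.23, 6.41 and 6.63 in WT_CD. Its difference of -0.21 ± 0.10 (SE, limma adjusted p = 0.295) and that of Cox7a1 at 0.57 lay on opposite sides of 0, and neither passed. Only 3 of the 10 striated muscle markers passed the filter, none was called, and their summed level ran from 8.76 to 8.92 in WT_LPD and from 8.67 to 9.01 in WT_CD. Of 5 brown fat markers, Ucp1 (4.73), Cidea (4.44) and Dio2 (4.63) were below the filter; Elovl3 stood at 0.88 ± 0.46 (adjusted p = 0.347) and Ppargc1a at -0.10 ± 0.22 (0.896) in the wild-type diet comparison. The summed level of the 5 ran from 8.47 to 9.27 in WT_LPD and from 8.52 to 10.25 in WT_CD.

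The members' levels also differed between the array sets within groups. Set A minus set B was -1.10 log2 for Ndufb7, -0.90 for Atp5g2 and -0.74 for Ndufa3 at one end. At the other end it was 0.94 for Ndufb2, 0.92 for Atp5mpl, 0.88 for Atp5l and 0.80 for Ndufa5. The mean deviation of the 78 members was -0.06 on set A arrays, beside 0.04 on set B arrays.

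**Figure D5:**
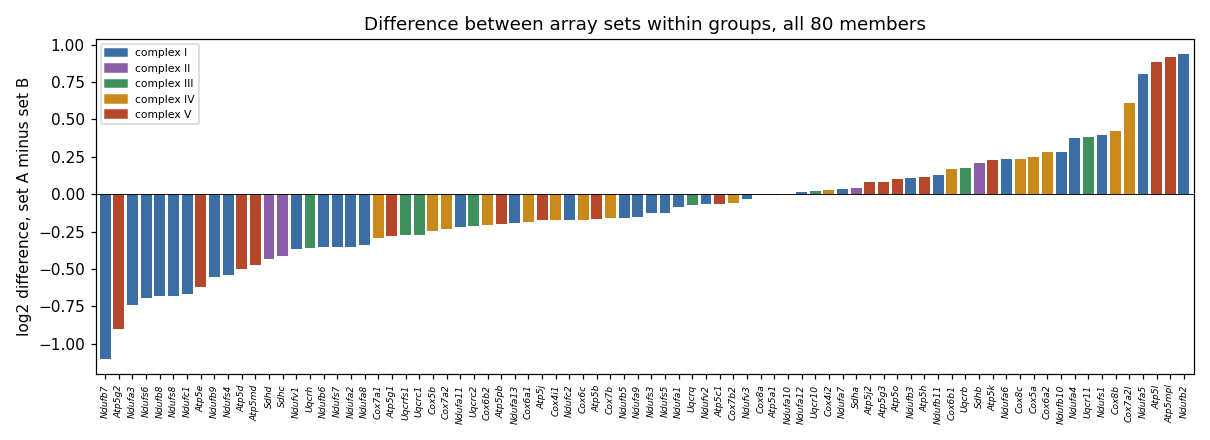
Log2 difference between array set A and array set B within groups for each of the 80 members, ordered by size and coloured by complex. The bars run from -1.10 (Ndufb7) to 0.94 (Ndufb2), with members of complexes I and V at both ends.

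Many but not all members varied together from sample to sample. Over the 3003 pairs of members, the median correlation of the deviations from group means was 0.15 over the 46 samples, and 0.005 over all pairs of tested genes; about the means of group and array set it was 0.27 and 0.007. The points share arrays and normalization, and the median level was log2 10.41 for members and 7.33 for all genes tested. Within sets the median was 0.28 for pairs in the same complex and 0.26 for pairs from different complexes. Against the mean of the other members, Ndufb5 (0.84), Ndufv1 (0.81) and Ndufb9 (0.81) followed the rest most closely, and Cox7a2l (-0.66), Cox6a2 (-0.58) and Ndufb2 (-0.58) ran the other way. About the means of group and array set these became -0.17 for Cox7a2l, -0.20 for Cox6a2 and 0.24 for Ndufb2, so the opposite course of Ndufb2 was not seen within sets. Cox7a2l is an assembly factor of respiratory supercomplexes rather than an ordinary subunit. Within array sets, 44 members had a correlation above 0.5 and 7 below 0; without regard to sets, 20 were below 0.

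Genes with several probe sets allowed a comparison within the array. Among the 16 such members, the other probe sets of Atp5g2, Atp5g1 and Atp5l correlated at 0.98 or above with the one used. These correlations are over all samples and include the difference between the array sets. The second probe sets of Atp5pb (0.58), Ndufa11 (0.63) and Cox7a2l (0.79) correlated less closely. The second probe set of Cox6c correlated at 0.19 and gave -0.06 ± 0.05 in the wild-type diet comparison, where the first gave 0.11 ± 0.08. The second of Ndufb11 correlated at 0.16. Cox7b gave 0.06 on one and 0.24 ± 0.11 on the other. Atp5l has 2 named pseudogenes in the annotation, and Atp5pb and Cox5b have 1 each. Their probe sets could also read near-identical copies, and which locus each reads was not tested.

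Genes around the complexes were counted in the same wild-type diet comparison, in which 3.6% of all genes tested passed. None of 15 tested complex I factors, 17 complex IV factors or 3 complex V factors passed (medians 0.13, 0.08 and 0.15). Sdhaf3, a complex II assembly factor, was higher by 0.30 ± 0.08 (SE, limma adjusted p = 0.0214), 1 of 4, and Ttc19, which acts on complex III, was lower, at -0.23 ± 0.07 (adjusted p = 0.0386), 1 of 6. Of the mobile carriers and coupling genes 2 of 14 were higher, and all 14 values were above 0 with a median of 0.16. They were Coq8a, of coenzyme Q synthesis, at 0.69 ± 0.17 (adjusted p = 0.0137), and the ADP/ATP carrier Slc25a4 at 0.56 ± 0.17 (0.0494). Cs, citrate synthase at the entry of the TCA cycle, was higher by 0.54 ± 0.12 (adjusted p = 0.00437), 1 of 12 TCA genes.

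Among 15 regulators of mitochondrial biogenesis, Esrra, an orphan receptor that activates respiratory genes, was lower, at -0.34 ± 0.08 (SE, limma adjusted p = 0.0135), and no other passed: Ppargc1a stood at -0.10 ± 0.22, Nrf1 at -0.03 ± 0.07, Gabpa at 0.08 ± 0.08, Yy1 at 0.01 ± 0.07 and Tfam at 0.09 ± 0.11. Of the 13 subunits encoded in mitochondrial DNA, 2 had a probe set, and neither passed: ND3 stood at -0.12 ± 0.14 and COX2 at -0.15 ± 0.13. Of 5 tested genes named like subunits but outside the rule, none passed. In ATF7+/- and ATF7+/+ offspring no gene of these lists was called for the sire's diet. In the wild-type diet comparison, some markers of other cells passed: 1 of 4 tested erythroid markers (Alas2, 0.84 ± 0.22, adjusted p = 0.0196), 1 of 6 endothelial markers (Cdh5, 0.34) and 2 of 6 stellate cell markers (Lrat, 0.53, and Reln, 0.42) were higher. None of the tested markers of hepatocytes (8), Kupffer cells (6), granulocytes (3), bile ducts (3), white fat (2) or pancreas (2) was called. The summed erythroid level ran from 9.38 to 10.51 in WT_LPD and from 8.99 to 10.23 in WT_CD, and the part of these cells in the members' values was not tested.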

How the data were processed

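Total RNA of 48 livers was hybridized as biotin-labelled cDNA. Per the submitters' processing notes, the authors ran RMA with Expression Console of Affymetrix, and deposited log2 values. Joint normalization of all arrays is not stated in the sources used here. The table held 35556 probe sets, from 1.21 to 14.23, and was used as deposited. Arrays have no read depth; their number limits the precision. The platform annotation gave 21789 probe sets 1 symbol and 1621 several, and 12146 were not listed. Per gene, the 1-symbol probe set with the highest mean over all arrays was used.

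Members, gene lists and most tests were chosen with earlier results of these data known. Group means were fitted with limma 3.58.1 in R 4.3.3 (package data.table, version 1.17.8), on all 6 groups and 13542 genes, with 9 contrasts; tests were two-sided, adjusted by Benjamini-Hochberg at 0.05. Members past the threshold were named, up to 12 per contrast, and otherwise the smallest p until 4 were named; in each complex the highest and lowest level, the complex IV isoform pairs, the 3 widest and 3 narrowest spreads, up to 3 called genes per context list and Atf7 were named too. Array sets were split at the largest gap along principal component 1 of 5591 unlisted probe sets. Arrays of a group were compared in 78 pairs by the spread of their difference on variable over stable genes; 2 pairs under a ratio of 1.5 were averaged, the others had ratios from 1.64 to 3.33.

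Same-numbered samples of both diets correlated in ATF7+/- (r from 0.18 to 0.74 in 8 of 8 pairs) and ATF7+/+ (0.27 to 0.70), where each pair lies in 1 array set, but not in wild-type (-0.48 to 0.50, 2 of 8 over 0.1). With the array set removed, the ATF7+/- pairs ran from -0.04 to 0.38 and the ATF7+/+ pairs from -0.13 to 0.28, 4 of 8 over 0.1 in each, so beyond a shared array set the numbers are not shown to pair samples. The fit had no replicate term; blocked fits were alternatives, beside other filters, normalizations, probe set rules, priors, weights, sample choices, array-set fits, a Y-linked covariate and each sample left out. The fit was tested on simulated data. Promoters were searched in RefSeq tables (GRCm38.p6), and figures drawn with matplotlib 3.10.9 in Python 3.11.15 (pandas 2.3.3).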

Additional observations from a re-analysis of the deposited data

Results flagged for a closer look

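Among the named members and the mean of all members, 132 groups of samples were tested for a sample far from the others, and 8 had one; chance flags about 1 in 20 groups. ATF7+/+_CD replicate 2 stood apart for Atp5pb, at log2 10.31 (nearest sample 10.78), and for Uqcrc2, at 11.19 (nearest 11.62). ATF7+/-_CD replicate 2 stood apart for Cox8a, at 11.51 (nearest 11.23), and for Ndufa7, at 9.28 (nearest 8.79). ATF7+/+_LPD replicate 1 did so for Atp5g3, at 11.88 (nearest 11.80), and for Uqcrq, at 11.10 (nearest 11.20). The remaining samples were ATF7+/-_LPD replicate 3 for Ndufa2, at 9.42 (nearest 9.22), and WT_CD replicate 8 for Ndufc2, at 11.51 (nearest 11.82).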

How the results depend on the processing

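Ndufs5 stayed past the threshold in the wild-type diet comparison under all 16 alternatives and in all 15 fits that left out 1 sample of those groups (0.42 to 0.51 log2, limma adjusted p from 3.686e-05 to 0.00185). The count of members called there was 2; it was 1 with no filter on level or with only the groups compared, and between 1 and 4 when a sample was left out. It was 10 with the array set as a block, alone or with the Y-linked covariate, 12 on set A arrays and 11 on set B arrays. The replicate block gave 4: Ndufs5, Cox7a1 (adjusted p = 0.042) and Uqcrb with Atp5g3 (0.0441) when shared by all groups, and the first 3 (Cox7a1 at 0.0483) with Ndufs4 within each label. It changed no other call count. Ndufc2 lost its call in 7 of the alternatives, among them median centring (adjusted p = 0.113) and all 48 arrays as samples (0.0582). Between ATF7+/- and ATF7+/+ the count of 0 became 30 in set A, 7 with the set block and 3 with block and covariate together; between ATF7+/+ and wild-type it became 29, 7 and 4, and between ATF7+/- and wild-type 2 in set A. For ATF7+/+ minus wild-type in the diet difference, 1 member (Ndufs5) passed with array weights, with the set block and with block and covariate. Cox4i1 in the ATF7+/- diet comparison turned to 0.002 in set B alone. The causes of these changes were not tested. No member was called for the sire's diet in ATF7+/- or ATF7+/+ offspring under any alternative run. The replicate block within each label gives no genotype contrast, so it was not run for those. Signal over background limited Cox7b2 and Cox8b, which were not tested.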
